A study of Sus scrofa with 8 samples.

Results

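A set of 10 target genes of the transcription factor p53 was followed gene by gene through the cell classes of the pig retina after intravitreal injection of an AAV vector. The genes were given by name, as CDKN1A, MDM2, ZMAT3, PHLDA3, SESN1, TP53INP1, CCNG1, EDA2R, BTG2 and RRM2B. No threshold on a measured value set the list, but it was drawn up with earlier results of these data known. Counts of these genes set beside shares of all genes are thus a description. Raw UMIs of the genes (unique molecular identifiers, 1 per captured RNA molecule) were summed per retina within 9 classes of nuclei set by marker genes. Of the 10 genes, 9 were found by symbol in the count files, 8 had UMIs in the 9 classes, and EDA2R was not analysed here. Their identifiers in the files are ENSSSCG00000001565 (CDKN1A), ENSSSCG00000000488 (MDM2), ENSSSCG00000033860 (ZMAT3), ENSSSCG00000057685 (PHLDA3), ENSSSCG00000004390 (SESN1), ENSSSCG00000034321 (TP53INP1), ENSSSCG00000017024 (CCNG1), ENSSSCG00000055218 (BTG2) and ENSSSCG00000036139 (RRM2B). PHLDA3 was listed but held 0 UMIs in every class of every retina, and 2 UMIs among the 1231686397 UMIs of all barcodes, which is under the 3 UMIs that a count of 0 allows.

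All groups were female Yucatan minipigs, aged 3–5 months, that had received intravitreal hyaluronidase (Vitrase) before dosing and methylprednisolone by intramuscular injection before and weekly after it. AAV-injected animals received AAV2.7m8/CAG-GFP, a capsid variant of AAV2 carrying green fluorescent protein behind the ubiquitously active CAG promoter, and vehicle-injected animals received the buffer, in both eyes. Single-nucleus RNA sequencing covered 8 retinas of 6 animals. Week 2 was represented by a pair of eyes from a single AAV-injected animal and a pair from a single vehicle-injected animal. Week 4 was represented by 1 left eye each of 4 animals, of which 2 were AAV-injected and 2 vehicle-injected. The batch label repeats the group, so batch and group cannot be told apart. Week 2 carries no test, since 2 eyes of 1 animal are not replicates of a treatment, and week 4 is a comparison of 2 against 2 animals, in which an exact permutation test cannot go below a p of 0.333.

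The retinas held between 121544835 and 173614051 UMIs. Of 388491 barcodes, 350537 passed the mitochondrial filter, and 13.8% of these passed the gates of several classes and were left out as possible doublets. Nuclei that passed both the Müller and the astrocyte gate were not left out on that ground and counted as astrocyte. Those that passed both the amacrine and the horizontal gate counted as horizontal. The part of such nuclei in the astrocyte and horizontal values was not tested. The 9 classes held 123002 rod, 32880 cone, 48621 bipolar, 25240 amacrine, 1885 horizontal, 1187 retinal ganglion cell (RGC), 28251 Müller, 1659 astrocyte and 2433 myeloid nuclei. Lanes of different retinas shared between 0.178% and 0.514% of their barcodes. The transgene matched the labels. Counted within the 9 classes alone, its sequence had 2 UMIs among the 387919524 UMIs that the 4 vehicle-injected retinas held there. With AAV, the week 4 retinas had 2981 and 3263 transgene UMIs in these classes, and the week 2 retinas 2726 and 7207.

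p53 is a transcription factor that is held low in resting cells by the ubiquitin ligase MDM2 and is stabilised by DNA breaks, stalled replication and other stresses. It then binds a response element made of a pair of similar short blocks and switches on genes that stop the cell cycle, repair DNA, alter metabolism or start cell death. MDM2 is itself a target, which closes a negative feedback loop. Müller cells, the radial glia that span the retina, and the astrocytes of the nerve fibre layer are the macroglia of this tissue.

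Matches to the p53 response element lay near the start of 5 of the 10 genes, and they are shown because the element is what the genes have in common by function and because the rule that named the genes used no sequence. The search used the RefSeq gene starts of Sscrofa11.1, 3000 bases to either side, the central cytosine and guanine of each block kept, and at most 2 mismatches elsewhere in the 20 bases. The element reads the same on both strands. Capitals mark the 4 central bases of each block, each sequence runs 5′ to 3′ on the strand of its gene, and where a gene had several matches the one with the fewest mismatches is printed.
CDKN1A, chr7:32352251-32352270, upstream of the gene: gaaCATGtcctaaCATGttg
MDM2, chr5:33106505-33106524, intron: ggtCAAGttcggaCAAGttc
ZMAT3, chr13:117145996-117146015, intron: aaaCAAGtccagaCATGtct
CCNG1, chr16:60356399-60356418, intron: taaCAAGttcaggCTAGtcc
BTG2, chr9:64035057-64035076, intron: ggcCTTGcctggaCATGcca
The ZMAT3 match had 0 mismatches, those of MDM2 and CCNG1 had 1, and those of CDKN1A and BTG2 had 2. Relative to the gene start, the matches were centred at -2515 (CDKN1A), 798 (MDM2), 1633 (ZMAT3), 328 (CCNG1) and 1214 (BTG2) bases along the gene's strand. Over 20674 genes searched in the same way, 3.61% had a match with at most 2 mismatches, 0.580% with at most 1 and 0.0580% with 0. No match was found in this window for PHLDA3, SESN1, TP53INP1, EDA2R or RRM2B. A match is a description of sequence, and binding was not measured.

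In the 4 vehicle-injected retinas the genes differed in where they were expressed, in CPM, the UMIs of a gene per 1000000 UMIs of the class in that retina. The measured CDKN1A values were between 0 and 1.12 in all 9 classes. In myeloid nuclei they were counts of 0, which do not bound the level at 1.12. There the limit of 3 UMIs over the vehicle group stood at 10.8 CPM at week 2 and 14.3 at week 4. MDM2 was highest in myeloid nuclei, at 51.8 to 84.5, and lowest in Müller nuclei, at 23.9 to 29.9, with no overlap of either range with that of another class. ZMAT3 was highest in horizontal cells, at 18.3 to 25.5, a range that overlapped that of myeloid nuclei, and was between 3.11 and 4.27 in Müller nuclei, which overlapped astrocyte nuclei. TP53INP1 was 113.3 to 125.1 in rods, above every other class, and lowest in horizontal cells, at 2.43 to 8.70, which overlapped RGCs at 6.15 to 11.4 and astrocyte nuclei at 7.85 to 13.1.

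SESN1 ranged from 103.7 to 150.5 in astrocyte nuclei, which overlapped myeloid and Müller nuclei, down to 31.3 to 44.4 in amacrine cells of the vehicle-injected retinas, which overlapped RGCs and horizontal cells. CCNG1 was 8.93 to 10.9 in cones and 6.29 to 10.4 in rods, which overlapped, and 3.30 to 3.88 in Müller nuclei. BTG2 was 7.93 to 14.99 in bipolar cells, within the range of myeloid nuclei and overlapping Müller nuclei, and 0.39 to 1.20 in cones. RRM2B was 26.6 to 34.7 in Müller nuclei and 27.0 to 33.1 in rods, which overlapped each other, horizontal cells and astrocyte nuclei, and 10.6 to 17.04 in bipolar cells, which overlapped cones and myeloid nuclei.

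At week 4, all 8 of the measured genes that had UMIs changed in Müller nuclei of AAV-injected retinas, 7 of them upwards. CDKN1A, MDM2 and ZMAT3 moved by the largest fold changes on the log2 scale, CCNG1, TP53INP1, RRM2B and BTG2 rose by less, and SESN1 fell. Among all 17160 genes tested in Müller nuclei, 11.3% were higher and 11.9% lower by the same rule (edgeR quasi-likelihood test, adjusted p below 0.05). The median log2 fold change was 1.94 over the 8 genes and -0.0028 over all genes tested. The list was drawn up with earlier results of these data known, so these comparisons are a description. CDKN1A passed the filter on low counts only through the AAV-injected animals, so it could be called higher but not lower. The 1 gene of 8 called lower is near the share of all genes that were lower. Both AAV-injected animals lay above both vehicle-injected animals for 7 of the 9 listed genes, against 32.4% of all genes tested. Leaving out either AAV-injected animal ended the 8 calls in Müller nuclei, with adjusted p up to 0.245, while leaving out either vehicle-injected animal ended none of them.

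**Figure D1:**
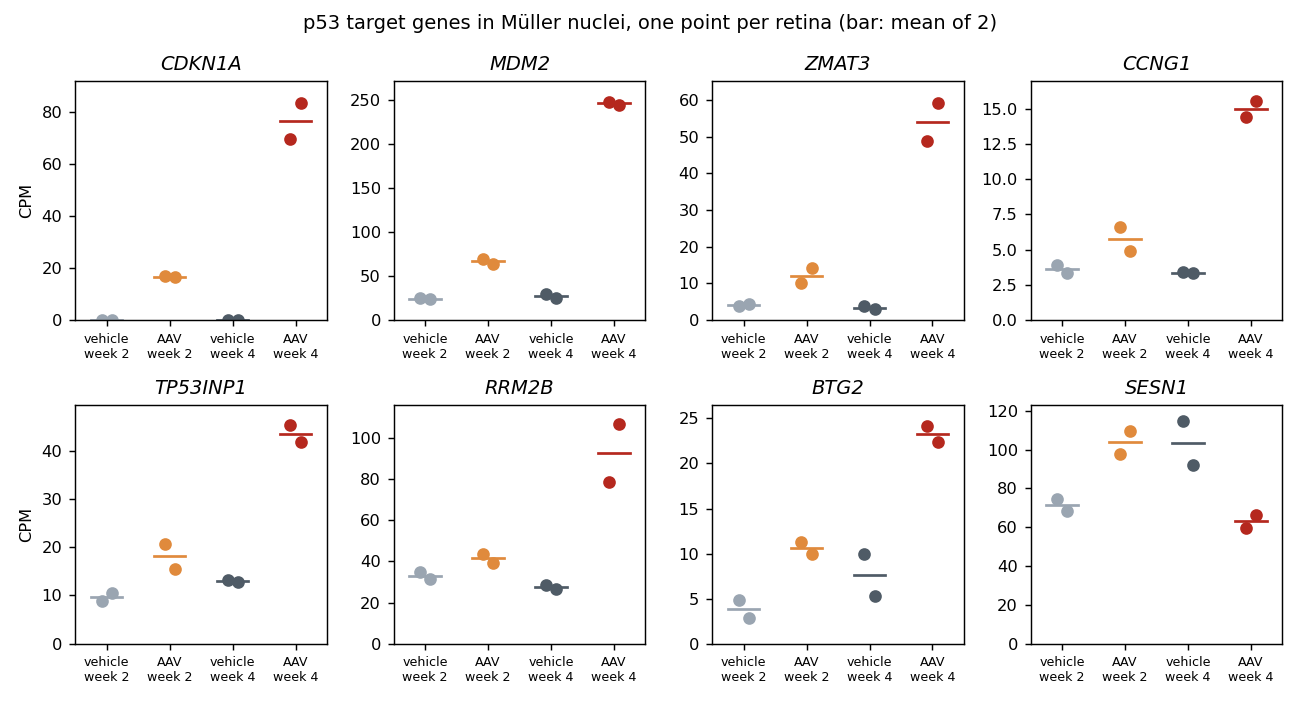
Level of each p53 target gene in Müller nuclei, in CPM of the class, with 1 point per retina and a bar at the mean of 2; groups are vehicle and AAV at week 2 and week 4, and each panel has its own axis from 0. In 7 panels both week 4 AAV-injected retinas sit above every other retina, while for SESN1 they are the lowest of the 8.

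CDKN1A encodes p21, an inhibitor of cyclin-dependent kinases that halts the cell cycle. In Müller nuclei its level was 16.9 and 16.5 CPM in the AAV-injected eyes and 0 and 0.081 in the vehicle-injected eyes at week 2. At week 4 it was 69.7 and 83.2 in AAV-injected and 0.098 and 0.097 in vehicle-injected animals, so that the groups did not overlap at either time. The vehicle values rest on 1 UMI in each of 3 retinas and none in the fourth. The week 4 ratio of CPM over the summed UMIs was 753 (95% exact interval 208 to 6229, counting error only), and the fitted log2 fold change was 9.38 (SE 0.31, adjusted p = 9.61e-07). The week 2 ratio was 455 (81.2 to 18014). A fitted fold change against so few vehicle UMIs, and the SE taken from it, depend on the prior count, and neither is a bound. This SE is far narrower than the counting interval above and does not measure the precision of the ratio.

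The share of Müller nuclei with at least 1 CDKN1A UMI was 27.4% and 32.2% in the AAV-injected animals at week 4, or 6.62% and 7.78% after thinning each nucleus to 1000 UMIs, against 1 nucleus of 4179 and 1 of 4564 in vehicle-injected animals. Rods of the AAV-injected animals had shares of 0.450% and 0.253%, or 0.184% and 0.0904% after thinning. Median UMIs per nucleus were 5418 and 5521 in those Müller nuclei and 1928 and 2179 in those rods, against 2175 and 1966 in the Müller nuclei of vehicle-injected animals.

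MDM2, which encodes the ubiquitin ligase that marks p53 for degradation, was present in Müller nuclei of vehicle-injected retinas. Its level was 69.8 and 64.0 CPM in AAV-injected and 24.7 and 23.9 in vehicle-injected eyes at week 2. At week 4 the AAV-injected animals reached 247.4 and 244.7, and the vehicle-injected animals stood at 29.9 and 25.5. The pair of AAV values at week 4 differed little from each other and exceeded all others, giving a log2 fold change of 3.14 (SE 0.13, adjusted p = 2.62e-06). The match to the response element printed above lies in the first kilobase of this gene.

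ZMAT3 encodes a zinc finger protein that binds RNA. Its Müller level was 10.0 and 14.1 CPM in AAV-injected and 3.75 and 4.27 in vehicle-injected eyes at week 2. It was 48.7 and 59.2 against 3.72 and 3.11 at week 4. The vehicle levels were alike at both weeks, and the log2 fold change at week 4 was 3.95 (SE 0.21, adjusted p = 7.21e-06). ZMAT3 is the gene with the match to the response element that had 0 mismatches.

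CCNG1, which encodes cyclin G1, a partner of protein phosphatase 2A in the control of MDM2, was a low-count gene. In Müller nuclei it stood at 6.58 and 4.87 CPM in AAV-injected and 3.88 and 3.30 in vehicle-injected eyes at week 2. At week 4 it was 14.4 and 15.5 against 3.43 and 3.30, with no overlap and a log2 fold change of 2.13 (SE 0.24, adjusted p = 0.000479). BTG2, an antiproliferative protein that recruits the deadenylation machinery to mRNA, was 11.3 and 9.93 against 4.88 and 2.82 at week 2. At week 4 it was 24.2 and 22.3 against 9.99 and 5.25, so that its vehicle-injected animals differed by a larger ratio than for the other genes with more than 1 UMI per animal, and the log2 fold change was 1.61 (SE 0.28, adjusted p = 0.00428).

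TP53INP1, a stress protein that takes part in autophagy and cell death, stood at 20.8 and 15.5 CPM in the Müller nuclei of AAV-injected and 8.83 and 10.5 in those of vehicle-injected eyes at week 2. At week 4 the values were 45.4 and 41.8 against 13.1 and 12.7, a log2 fold change of 1.74 (SE 0.16, adjusted p = 0.000169). RRM2B encodes the p53-inducible small subunit of ribonucleotide reductase, which supplies deoxynucleotides outside S phase. It was 43.7 and 39.3 against 34.7 and 31.4 at week 2, without overlap. At week 4 it reached 78.4 and 106.5 against 28.4 and 26.6, and the log2 fold change was 1.72 (SE 0.17, adjusted p = 0.000276).

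SESN1 went the other way at week 4. It encodes sestrin 1, which restrains mTORC1 signalling when amino acids are scarce or DNA is damaged. Its level in Müller nuclei was 97.8 and 109.5 CPM in AAV-injected and 74.7 and 68.3 in vehicle-injected eyes at week 2, a ratio of 1.46 (1.38 to 1.55). At week 4 it was 59.5 and 66.4 in AAV-injected and 114.5 and 92.0 in vehicle-injected animals, with no overlap and a log2 fold change of -0.73 (SE 0.15, adjusted p = 0.00852). It was the only gene of the 8 called lower in any of the 9 classes. In Müller nuclei 11.9% of all genes tested were called lower, so 1 lower gene of 8 is near that share.

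Several other measurements moved with these results in Müller nuclei at week 4. The class held 1458 and 553 nuclei in AAV-injected against 4179 and 4564 in vehicle-injected retinas. GFAP, the intermediate filament of astrocytes and of reactive Müller cells, was 406.9 and 281.6 CPM against 45.0 and 128.3, while PAX2, which marks astrocytes, was 1.13 and 2.91 against 1.66 and 3.59. Of the 9 Müller gate markers, 7 were lower and 1 higher with AAV without overlap between the groups, and 1 overlapped, with a summed level of 2589 and 2489 against 4068 and 4053. The gate requires RLBP1 or RGR, and both were lower in the AAV-injected animals, whose Müller nuclei were fewer and had more UMIs each. RLBP1, the retinal-binding protein of Müller cells, was 449.0 and 471.3 against 1067 and 1009.7, and RGR, a retinal G protein-coupled receptor, was 61.5 and 73.8 against 526.8 and 571.7. The glutamate transporter gene SLC1A3 was 1395 and 1282 against 1051 and 1144, and the water channel gene AQP4 overlapped at 52.6 and 47.3 against 48.7 and 40.0. The summed level of the rod gate markers was 186.6 and 176.1 against 410.1 and 376.5. All 8 genes were also called, in the same direction, among Müller nuclei with at least 3000 UMIs, a limit chosen after the data were seen. The part of nucleus number and marker shift in the changes of the p53 targets was not tested.

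Astrocyte nuclei showed a rise of CDKN1A, MDM2, ZMAT3 and TP53INP1 at week 4, 4 of the 8 genes tested, against 7.56% of all genes tested in that class. CDKN1A was 17.2 and 32.6 CPM in AAV-injected animals and 0 in both vehicle-injected animals, at least 16.6-fold higher when the vehicle sum is set to the limit of 3 UMIs over the group (log2 fold change 8.12, adjusted p = 0.00217, a fitted value that depends on the prior count). MDM2 was 111.5 and 153.4 against 33.7 and 36.2 (log2 fold change 1.97, SE 0.24, adjusted p = 0.000823). Neither of these genes overlapped between the groups. The share of all genes without overlap was not computed in this class. In Müller nuclei 32.4% of all genes tested were higher without overlap.

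ZMAT3 in astrocyte nuclei was 21.1 and 38.3 CPM against 8.43 and 6.92 at week 4 (log2 fold change 1.99, SE 0.44, adjusted p = 0.0155). TP53INP1 was 38.8 and 44.1 against 9.63 and 12.3 (log2 fold change 1.93, SE 0.31, adjusted p = 0.00321). CCNG1, RRM2B and BTG2 were also higher in both AAV-injected animals without passing the test, with log2 fold changes of 1.08, 0.50 and 0.41. SESN1 overlapped between the groups, at 122.1 and 111.4 against 150.5 and 110.8. The calls for CDKN1A and ZMAT3 ended without either vehicle-injected animal (adjusted p up to 0.0760 and 0.171), and those for MDM2 and TP53INP1 without replicate 1 of the vehicle group (adjusted p = 0.0669 and 0.0760).

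All 4 gate markers of the astrocyte class were lower with AAV at week 4, without overlap between the groups, with a summed level of 1824 and 1866 CPM against 3049 and 2571. PAX2, which the gate requires, was 872.1 and 863.8 against 1389.7 and 962.5, and GFAP was 918.1 and 934.7 against 1549.8 and 1518.8. The class also differed between groups in depth, with median UMIs of 10182 and 10766 against 4727 and 4888. Its level of RLBP1 was 36.4 and 33.3 against 332.4 and 251.6, and that of the potassium channel gene KCNJ10 was 13.4 and 19.5 against 128.9 and 106.2. The part of these shifts in the results was not tested.

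**Figure D2:**
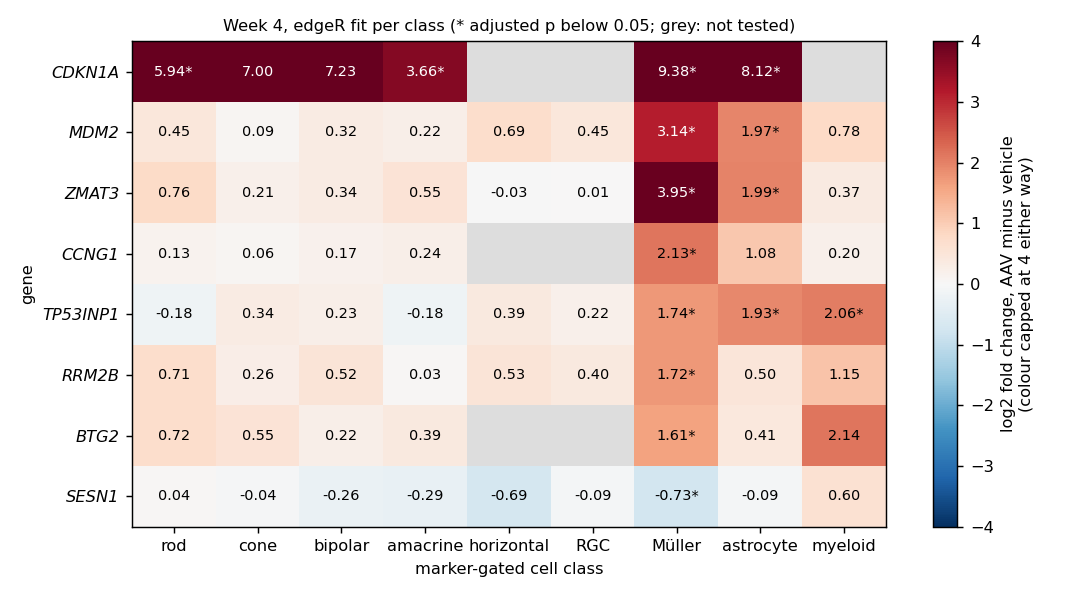
Fitted log2 fold change of each p53 target gene (rows) in each of the 9 marker-gated classes (columns), AAV minus vehicle at week 4, n = 2 animals per group, with colour capped at 4 either way, asterisks at an adjusted p below 0.05 and grey where a gene was too low to be tested. The Müller column is called in all 8 rows and the astrocyte column in 4, and outside the glia CDKN1A is called in rods and amacrine cells and TP53INP1 in myeloid nuclei.

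Over all classes, 65 of the 81 combinations of a measured gene and a class could be tested at week 4, of which 14 were called higher and 1 lower. Wherever CDKN1A was tested, it passed the filter on low counts only through the AAV-injected animals, so its calls could only be higher. Outside the macroglia edgeR called CDKN1A and TP53INP1 only, while DESeq2 also called ZMAT3 in rods (adjusted p = 0.0310). In myeloid nuclei, gated on genes of microglia and macrophages, TP53INP1 was 88.1 and 88.2 CPM in AAV-injected against 22.1 and 25.2 in vehicle-injected animals, a log2 fold change of 2.06 (SE 0.47, adjusted p = 0.0170), where 6.28% of all genes were called higher. The vehicle values come from 5 UMIs, since the class held 60 and 63 nuclei in vehicle-injected and 1230 and 747 in AAV-injected retinas. This call was lost without any 1 of the 4 animals, with adjusted p up to 0.335. The marker levels of the class also differed at week 4. Of its 14 gate markers, 6 were higher and 4 lower without overlap. CD163 and MRC1, known from macrophages, were 2261 and 1466, and 372.9 and 326.9 CPM, in AAV-injected animals, while each had 0 UMIs in 1 vehicle-injected animal and 1 UMI in the other. P2RY12, known from resting microglia, was 517.0 and 760.9 against 2012 and 1638. A change of TP53INP1 within cells and a change in which cells the class held cannot be told apart here. The median log2 fold change in myeloid nuclei was 0.78 over the 7 genes tested and 0.12 over all genes tested.

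CDKN1A in myeloid nuclei was 41.5 and 46.2 CPM in the AAV-injected eyes at week 2 and 7.31 and 19.2 in the AAV-injected animals at week 4, with 0 UMIs in all 4 vehicle-injected retinas. At week 2 this was at least 4.03-fold above the limit of 3 UMIs over the vehicle group. At week 4 that limit stood at 14.3 CPM, since the class held few vehicle nuclei, and no fold is given. The gene was left out of the week 4 test by the filter on low counts, and with no such filter it did not pass (edgeR adjusted p = 0.157, unadjusted p = 0.0152). Between the AAV-injected retinas of week 2 and week 4 the class went from 107 and 81 to 1230 and 747 nuclei, from 1586 and 1226 to 517.0 and 760.9 CPM of P2RY12, and from 159.0 and 168.0 to 2261 and 1466 CPM of CD163. With 0 UMIs in every vehicle-injected retina, the interaction of treatment and week was not informative for this gene (SE 4957 on the log2 scale). The part of the marker shifts in the CDKN1A values was not tested.

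In neurons the CDKN1A level was low everywhere. In each neuronal class where it was tested, it passed the filter on low counts only through the AAV-injected animals. At week 4 rods held 2.23 and 1.06 CPM in AAV-injected animals and 0 and 0.065 in vehicle-injected animals, from 183 UMIs against 1. The ratio was 64.0 (11.3 to 2540.5), with a log2 fold change of 5.94 (SE 0.94, adjusted p = 0.0193), in a class where 5.74% of genes were called higher. Amacrine cells held 1.20 and 1.36 against 0.137 and 0.056, from 37 UMIs against 3, a ratio of 13.7 (4.34 to 69.5) and a log2 fold change of 3.66 (SE 0.59, adjusted p = 0.0152), where 2.04% of genes were called. The rod call ended among nuclei with at least 3000 UMIs (adjusted p = 0.0578) and without either vehicle-injected animal (up to 0.0664). The amacrine call ended under DESeq2 (adjusted p = 0.0554) and without replicate 2 of the vehicle group (adjusted p = 0.127).

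Cones held 1.55 and 0.885 CPM of CDKN1A in AAV-injected animals at week 4 and 0 in both vehicle-injected animals, at least 9.81-fold, and bipolar cells held 1.32 and 0.708 against 0, at least 11.13-fold. Neither passed by edgeR (adjusted p = 0.0930 and 0.0536), and both passed by DESeq2 (adjusted p = 0.0333 and 0.0108). RGCs, the class with the fewest nuclei, held 7 UMIs in AAV-injected and 0 in vehicle-injected animals, at least 2.21-fold, and horizontal cells held 2 against 0, too few for a fold. The neuronal CDKN1A levels at week 4 were between 0 and 3.20% of the Müller level of the same retina. RLBP1 and RGR together, which neurons should lack, were between 0.639% and 2.50% of theirs. At week 2 the neuronal CDKN1A levels were between 0 and 9.07% of the Müller level, against 1.04% to 3.16% for RLBP1 and RGR. The Müller gate requires RLBP1 or RGR, and nuclei that passed both a Müller and a neuronal gate were left out. The percentages of RLBP1 and RGR thus depend on the gate. They do not measure how much Müller RNA the neuronal sums hold. Markers of other cells moved in the same rod sums at week 4. Of 14 lymphocyte markers, 13 were higher without overlap, with a summed level of 36.9 and 26.2 CPM in AAV-injected against 9.91 and 10.9 in vehicle-injected animals, and of 14 myeloid markers 9 were higher and 2 lower (35.9 and 28.7 against 22.5 and 21.9). All 9 Müller markers were lower (43.8 and 27.3 against 132.4 and 158.2). The rod sums of week 2 went the other way, with 5 of the 9 Müller markers higher and 1 lower without overlap (167.9 and 125.7 against 113.8 and 101.1). In amacrine cells 7 of the 14 lymphocyte markers were higher and 2 lower (40.3 and 47.8 against 34.9 and 34.5), and 10 of the myeloid markers were higher (28.7 and 26.1 against 18.9 and 13.99). The part of RNA from Müller or immune cells in the neuronal values was not tested.

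**Figure D3:**
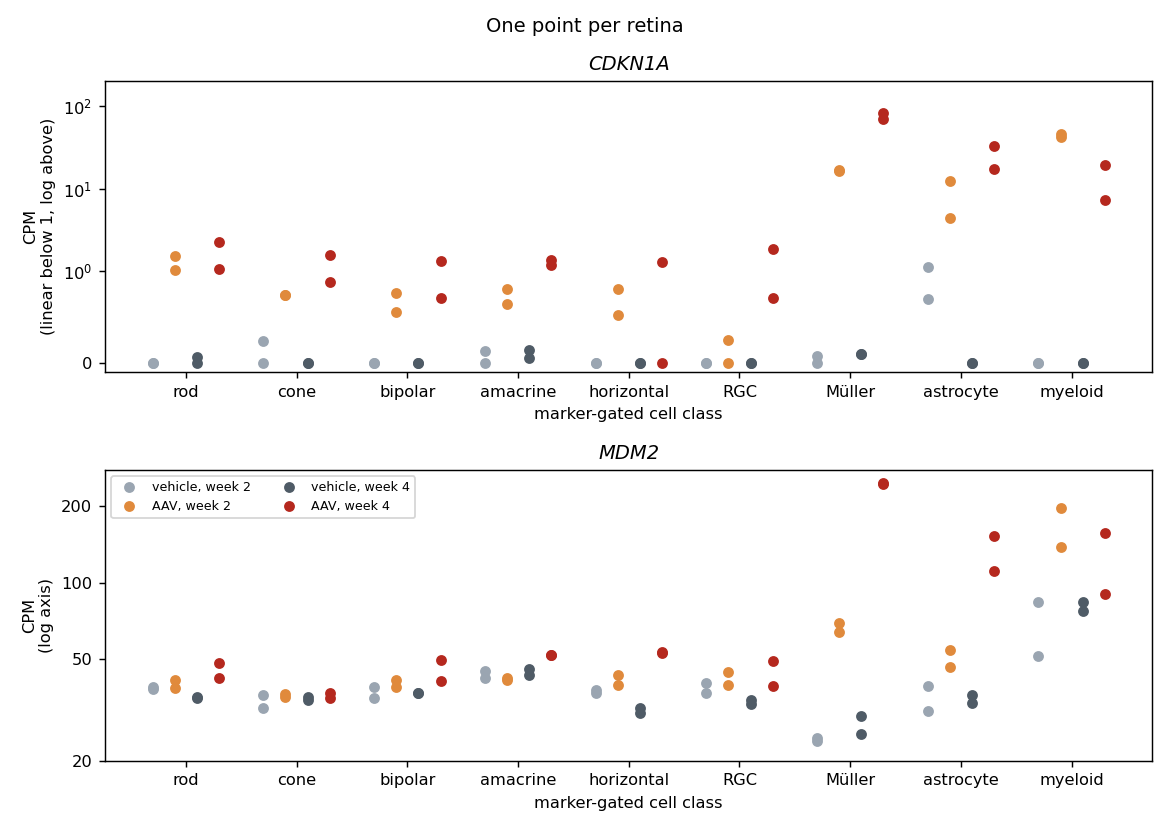
CPM of CDKN1A (top, linear below 1 and logarithmic above) and MDM2 (bottom, log axis) in the 9 classes, with 1 point per retina coloured by group. The plotted CDKN1A points of vehicle-injected retinas lie at or below 1.12. In myeloid nuclei these points hold no UMIs and do not bound the level at 1.12. The limit of 3 UMIs over the vehicle group is there 10.8 CPM at week 2 and 14.3 at week 4. CDKN1A lies above 10 in both AAV-injected retinas of Müller nuclei at each week, of astrocyte nuclei at week 4 and of myeloid nuclei at week 2. It also does in replicate 2 of the AAV group in astrocyte nuclei at week 2 (12.5) and in myeloid nuclei at week 4 (19.2). The lowest and highest neuronal MDM2 values, 30.7 and 53.3, are a vehicle-injected and an AAV-injected retina of week 4 in horizontal cells.

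The other targets were expressed in neurons but edgeR called them in none of the 6 neuronal classes, and DESeq2 called 1 of them, ZMAT3, in rods. CCNG1 and BTG2 were too low to be tested in horizontal cells and RGCs. In RGCs, where the transgene stood at 111.4 and 110.1 CPM in the AAV-injected animals at week 4, its highest level of any class, MDM2 was 49.3 and 39.4 CPM in AAV-injected and 34.6 and 33.4 in vehicle-injected animals at week 4 (log2 fold change 0.45, SE 0.19, adjusted p = 0.290). RRM2B in RGCs was 29.1 and 32.0 against 22.6 and 25.5 (adjusted p = 0.391). Both genes were higher in both AAV-injected animals without passing the test, and in RGCs ZMAT3, SESN1 and TP53INP1 had adjusted p between 0.860 and 0.992.

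In horizontal cells MDM2 was 52.8 and 53.3 CPM in AAV-injected against 30.7 and 32.2 in vehicle-injected animals at week 4 (log2 fold change 0.69, SE 0.22, adjusted p = 0.125), from 138 UMIs against 106. The groups did not overlap, and the ratio of CPM was 1.68 (1.30 to 2.19). The markers of this class also differed. Its own gate markers summed to 605.2 and 476.5 CPM in AAV-injected against 725.8 and 753.6 in vehicle-injected animals. The bipolar gate markers in it summed to 1320 and 1589 against 357.7 and 1249. The part of these shifts in the horizontal MDM2 values was not tested. MDM2 was 49.7 and 41.0 against 36.8 and 36.9 in bipolar cells (adjusted p = 0.244) and 52.3 and 52.1 against 43.4 and 45.9 in amacrine cells (adjusted p = 0.285), again without overlap, while the groups overlapped in cones. The share of all genes without overlap was not computed in the neuronal classes.

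In rods, MDM2 was 48.6 and 42.3 against 35.6 and 35.2 (adjusted p = 0.0624), ZMAT3 was 9.10 and 9.05 against 6.17 and 5.13 (adjusted p = 0.0528), and RRM2B was 34.8 and 55.3 against 27.0 and 32.0 (adjusted p = 0.121). TP53INP1, whose level in rods exceeded that in every other class, was 92.3 and 105.1 against 125.1 and 113.3 (log2 fold change -0.18, adjusted p = 0.412). The rod values of ZMAT3 passed the test under 4 of the alternatives tried and those of MDM2 and RRM2B under 2 each, counting animals left out.

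By edgeR no gene was called among the 8 tested in cone and in bipolar nuclei or the 5 tested in horizontal and in RGC nuclei. CDKN1A, CCNG1 and BTG2 were too low to be tested in horizontal and RGC nuclei. In cone, bipolar, horizontal and RGC nuclei 0.614%, 1.41%, 2.89% and 1.72% of all genes tested were called higher. At an unadjusted p below 0.05 the counts of higher genes were, in the same order, 2 of 8, 2 of 8, 1 of 5 and 1 of 5. Of all genes tested, 7.28%, 9.25%, 9.92% and 7.98% were higher by that rule. In horizontal cells 1 gene of 5 was lower, where 8.55% of all genes were. DESeq2 called 1 higher gene each in cones and bipolar cells and 0 in the other two. The share of all genes that DESeq2 called was not computed, so these counts cannot be set against it. The median log2 fold change of the genes tested was 0.58 in rods, 0.23 in cones, 0.28 in bipolar cells, 0.23 in amacrine cells, 0.39 in horizontal cells and 0.22 in RGCs, against medians over all genes between -0.0064 and 0.021.

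At week 2, 13 of the 68 combinations with at least 10 UMIs were over 2-fold higher in the AAV-injected animal and 0 were over 2-fold lower. In Müller nuclei these were CDKN1A, MDM2 at a ratio of 2.72 (2.49 to 2.98), ZMAT3 at 3.13 (2.51 to 3.93) and BTG2 at 2.65 (2.11 to 3.34), 4 genes of 8, where 7.48% of all genes with enough UMIs exceeded 2-fold. TP53INP1, CCNG1 and RRM2B had ratios of 1.83, 1.53 and 1.23 in the same class. All 8 genes were higher in both AAV-injected eyes than in both vehicle-injected eyes, as were 33.2% of all genes with enough UMIs.

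In the other classes CDKN1A accounted for most of the week 2 differences. It was at least 25.9-fold higher in rods (47 UMIs against 0) and at least 9.599-fold in bipolar cells (34 against 0). Its ratios were 6.65 (2.01 to 34.6) in cones, 11.5 (3.62 to 58.5) in amacrine cells and 7.87 (2.16 to 43.1) in astrocyte nuclei. In the same rod sums 5 of 9 Müller markers were higher and 1 lower without overlap (167.9 and 125.7 CPM against 113.8 and 101.1). Of 14 lymphocyte markers 5 were higher and 1 lower, and of 14 myeloid markers 2 were higher and 1 lower. The part of RNA from other cells in the rod value was not tested. BTG2 exceeded 2-fold in rods at 2.57 (1.75 to 3.83) and in RGCs at 2.26 (0.724 to 8.30), and MDM2 in myeloid nuclei at 2.49 (1.505 to 4.325). The shares of all genes past 2-fold were 6.52% in rods, 6.31% in cones, 4.29% in bipolar cells, 5.24% in amacrine cells, 7.7% in horizontal cells, 5.99% in RGCs, 5.94% in astrocyte nuclei and 15.7% in myeloid nuclei. No horizontal cell value was among the 13. The myeloid markers also differed at week 2, where 3 of the 14 gate markers were higher and 4 lower without overlap, with a summed level of 3615 and 3158 CPM against 4286 and 4145. CD163 was 159.0 and 168.0 against 0 in both vehicle-injected eyes, the integrin gene ITGAM was 400.8 and 352.7 against 943.1 and 666.1, and P2RY12 was 1586 and 1226 against 2034 and 1961. The part of this shift in the myeloid MDM2 and CDKN1A values was not tested. These are values of 1 animal per arm, and animal and treatment cannot be told apart at week 2.

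The AAV minus vehicle differences of the 2 weeks were set side by side for each gene as the interaction of treatment and week over the 6 animals. Week 2 has 1 animal per arm, the 2 residual degrees of freedom come from week 4 alone, and each week 2 animal is assumed to vary like those of week 4. A difference between weeks and a difference of those single animals cannot be told apart, so the p-values below hold only under that assumption. In Müller nuclei the log2 difference between AAV-injected and vehicle-injected animals was larger at week 4 by 1.74 for MDM2 (adjusted p = 0.00791), by 2.36 for ZMAT3 (adjusted p = 0.0105) and by 1.47 for RRM2B (adjusted p = 0.0300). For SESN1 the week 4 minus week 2 value was -1.24 (adjusted p = 0.0321), with the AAV-injected retinas above the vehicle level at week 2 and below it at week 4. Among all genes tested in Müller nuclei, 1.27% had a higher and 2.83% a lower difference at week 4. CCNG1 (1.56, adjusted p = 0.0584), TP53INP1 (0.92, adjusted p = 0.100), BTG2 (0.25, adjusted p = 0.814) and CDKN1A (0.98, adjusted p = 0.854) did not pass, and no gene did in the other 8 classes, where CDKN1A had at most 3 UMIs in any vehicle-injected retina. The 4 calls were kept under DESeq2. With no filter on low counts all 4 were lost (adjusted p between 0.214 and 0.238), and under the stricter gate RRM2B and SESN1 were lost (adjusted p = 0.0548 and 0.0555).

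**Figure D4:**
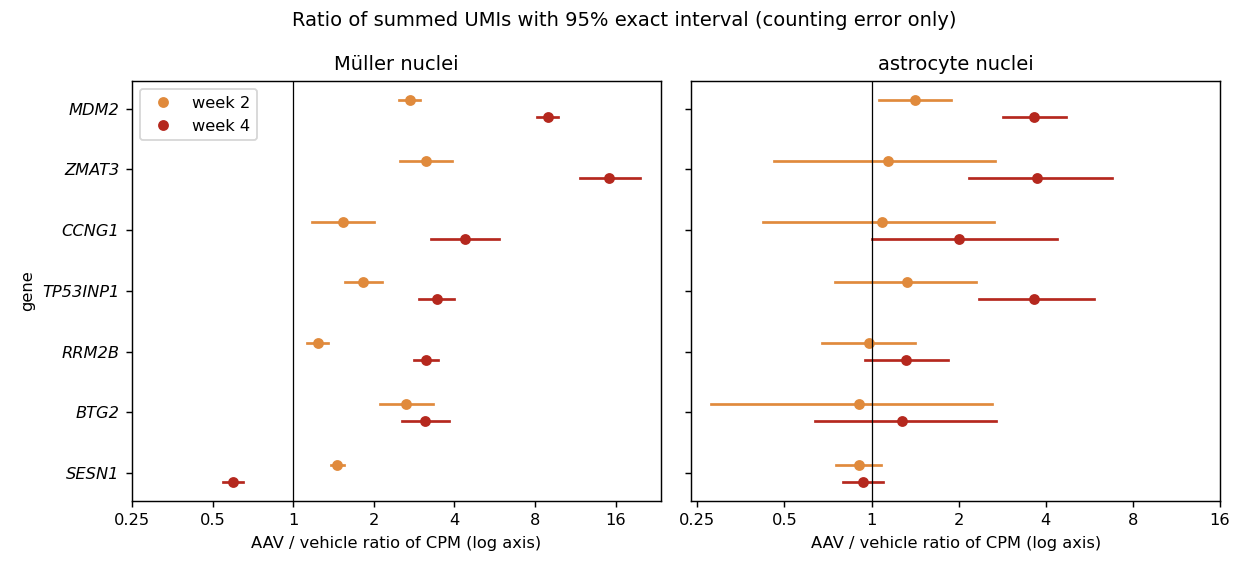
AAV to vehicle ratio of CPM over the summed UMIs for 7 p53 target genes in Müller (left) and astrocyte (right) nuclei, on a log axis, with week 2 and week 4 side by side and lines for the 95% exact interval, which covers counting error only. In Müller nuclei MDM2 moves from 2.72 to 8.91 and ZMAT3 from 3.13 to 15.1, and SESN1 crosses 1 from 1.46 to 0.595.

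The wider p53 network was followed with 72 further genes, of which 66 were in the files. The list covers regulators of p53 and targets grouped by role, and it was drawn up with earlier results of these data known. In Müller nuclei at week 4, 15 of the 58 tested were higher and 6 lower, against 11.3% and 11.9% of all genes, with a median log2 fold change of 0.57. The share called lower was thus near that of all genes. FAS, BBC3 and AEN, which the naming rule picked, all belong to the death targets, where 5 of 9 tested rose and 1 fell. FAS, the death receptor, was 30.2 and 31.4 CPM against 0.587 and 0.389 (ratio 62.6, log2 fold change 5.92). BBC3, the BCL2 antagonist PUMA, was 12.8 and 16.2 against 0.294 and 0.291 (ratio 46.9, log2 fold change 5.52). AEN, a nuclease of apoptotic cells, was 29.9 and 22.3 against 0.490 and 0.777 (ratio 43.9, log2 fold change 5.34). The vehicle sums of FAS, BBC3 and AEN held 10, 6 and 13 UMIs. Like CDKN1A, these genes passed the filter on low counts only through the AAV-injected animals.

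The remaining groups gave smaller counts in Müller nuclei, to be read against the 11.3% higher and 11.9% lower of all genes, and the genes named in this paragraph were chosen after their values were seen. Among regulators 2 of 9 rose, including the p53 inhibitor MDM4 (log2 fold change 0.63), and the checkpoint kinase ATR fell (-0.41). Among cell cycle targets 1 of 7 rose, PLK2, a polo-like kinase (2.21). Among repair targets 3 of 9 rose, the damage sensor XPC (2.10) and the translesion polymerases POLK (1.65) and REV3L (0.63), and RPA1, which coats single-stranded DNA, fell (-0.67). Among secreted and membrane targets 4 of 14 rose, including the cytokine GDF15 (4.44), and 2 fell. No metabolism and autophagy target of 10 rose and 1 fell. The 1 of 7 cell cycle targets higher and the 1 of 10 metabolism targets lower are near the shares of all genes. So are the 1 of 9 regulators, the 1 of 9 repair targets and the 2 of 14 secreted and membrane targets that were lower.

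**Figure D5:**
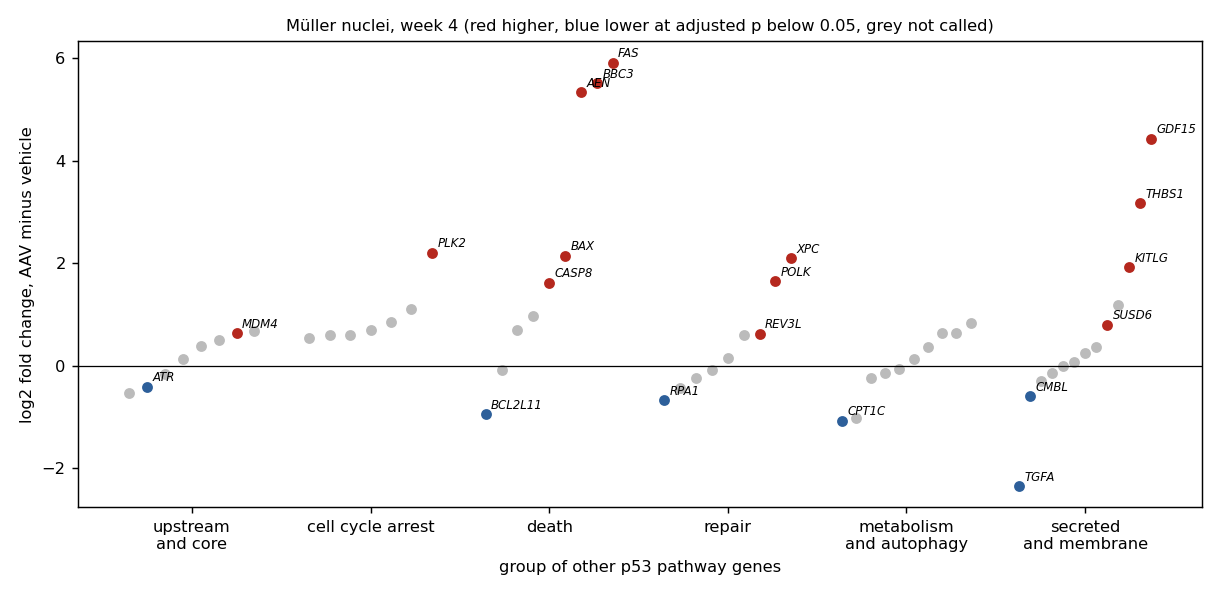
Fitted log2 fold change at week 4 (AAV minus vehicle, n = 2 animals per group) of other p53 pathway genes tested in Müller nuclei, arranged by role and sorted within each group, with red points higher and blue points lower at an adjusted p below 0.05. FAS, BBC3 and AEN lie between 5.34 and 5.92, above every other gene shown.

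Outside Müller nuclei the same list gave 8 higher and 1 lower of 43 in astrocyte nuclei, against 7.56% and 6.91% of all genes, and 5 and 2 of 63 in rods, against 5.74% and 5.51%. It gave 4 higher of 44 in myeloid nuclei (6.28% of all genes), 2 of 58 in bipolar cells (1.41%), 1 of 51 in cones (0.614%) and 1 of 59 in amacrine cells (2.04%), with 0 lower. The counts in rods, myeloid nuclei and amacrine cells are near those shares. In horizontal cells and RGCs edgeR called 0 of 33 and 0 of 43, and DESeq2 called 0 in both. At an unadjusted p below 0.05 there were 4 higher and 2 lower in horizontal cells, against 9.92% and 8.55% of all genes, and 4 higher and 4 lower in RGCs, against 7.98% and 6.76%. In astrocyte nuclei FAS was 22.0 and 12.3 CPM against 0 and 1.54 (ratio 19.3, 5.13 to 163), and the matrix protein gene THBS1 had a ratio of 9.20 (3.77 to 29.2). In rods FAS was 2.05 and 1.31 against 0.197 and 0.130 (ratio 9.54, 4.54 to 24.0).

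The BH3-only gene PMAIP1 (NOXA) had ratios of 7.57 (2.48 to 37.7) in rods and 27.5 (4.61 to 1120.5) in bipolar cells at week 4, the latter from 33 UMIs against 1. PLK2 had ratios of 4.28 in rods and 3.04 in cones. INPP5D, an inositol phosphatase of blood cells and microglia, had ratios of 7.40 in bipolar and 3.09 in amacrine cells. The retinas of the AAV-injected animals held 1230 and 747 myeloid nuclei at week 4, against 60 and 63 in vehicle-injected animals, and the part of their RNA in these values was not tested. In myeloid nuclei the rule named the cyclin gene CCNG2, the autophagy gene DRAM1 and the metabolic regulator TIGAR. CCNG2 was at least 2.31-fold higher (lower limit 1.86), from 188 UMIs against 0. The ratio was 4.39 (2.38 to 9.17) for DRAM1, with 10 vehicle UMIs, and 3.69 (1.43 to 13.6) for TIGAR, with 4. P2RY12 in these nuclei was 517.0 and 760.9 CPM in AAV-injected against 2012 and 1638 in vehicle-injected animals. The part of this marker shift in the myeloid ratios was not tested.

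The genes whose pattern was most like that of CDKN1A and MDM2 were found by Pearson correlation of log2(CPM + 1) over the 72 sums of 9 classes in 8 retinas, among 8703 genes. These points share libraries and depth, so r is a description. For CDKN1A they were BST2 (r = 0.86), XPC (0.83), GHSR (0.82), PLEKHA4 (0.82) and ZNFX1 (0.81). For MDM2 they were POLK (0.84), TRIM34 (0.83), SAMD9 (0.80), MX2 (0.80) and SLC25A28 (0.78). XPC and POLK are in the list of p53 pathway genes above, and BST2 and MX2 are known as interferon-stimulated genes. The remaining genes were not assigned to either set here. In Müller nuclei BST2 averaged 84.5 CPM in AAV-injected and 0.248 in vehicle-injected eyes at week 2. It averaged 79.3 in AAV-injected and 0.146 in vehicle-injected animals at week 4.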

How the data were processed

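Nuclei of frozen retinas were sorted by DAPI and sequenced on 4 lanes per retina with a 3′ kit. The authors aligned reads to Sscrofa11.1 with the EGFP sequence added and deposited the UMI counts per gene and barcode from Cell Ranger 8.0.0 without normalization. Barcodes were filtered per retina with a mixture model of mitochondrial share (posterior 0.75), which kept at most 0.300% to 0.581% mitochondrial UMIs. A nucleus entered a class with at least 2 distinct marker genes and marker UMIs of at least 0.25 of the class's reference level, plus a defining marker for Müller (RLBP1 or RGR), astrocyte (PAX2), amacrine and RGC nuclei. The stricter gate required 0.5 and 3 markers (2 for astrocytes). No p53 target gene was a marker. This gating rule and the limit of 3000 UMIs were set after the data were seen, and the genes and lists were chosen with earlier results of these data known.

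Counts were summed per retina and class. Week 4 was tested with edgeR 4.0.16 (R 4.3.3) by the quasi-likelihood test with TMM and filterByExpr, and Benjamini-Hochberg adjustment over all genes of a class, at 0.05. The SE of an edgeR value is its absolute log2 fold change divided by the square root of its F statistic. It is not estimated by the fit itself. DESeq2 1.42.0 was an alternative, and its share of calls over all genes was not computed. Only the edgeR fit of week 4 was run on simulated data, for Müller nuclei, and its outcome is not reported here. DESeq2 and the interaction were not run on simulated data. Week 2 ratios have exact 95% binomial intervals, and a sum of 0 was set to 3 UMIs over the group, both for counting error only. A ratio against such a sum is not a lower bound, so the lower limit of its exact interval is given beside it. Class UMIs per retina set the precision. Beyond the members, the rule named per class the 3 other pathway genes of largest fold change among those called without overlap, and the 5 genes of highest correlation with CDKN1A or MDM2. Replicate libraries differed beyond sampling noise (chi-square per gene in rods between 3.85 and 48.8). The matches to the response element were read from the reference sequence of the same build. Some pathway genes entered the counts but are not reported here by name or plotted.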

Additional observations from a re-analysis of the deposited data

Results flagged for a closer look

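For 4 genes in Müller nuclei the edgeR interaction of treatment and week passed the threshold. On the log2 scale the week 4 minus week 2 value of the AAV minus vehicle difference was 1.74 for MDM2, 2.36 for ZMAT3, 1.47 for RRM2B and -1.24 for SESN1. All 8 retinas show the direction for SESN1, with both AAV-injected eyes above both vehicle-injected eyes at week 2 and both AAV-injected animals below both vehicle-injected animals at week 4. With no filter on low counts none of the 4 passed in Müller nuclei (adjusted p between 0.214 and 0.238), and under the stricter gate RRM2B and SESN1 did not. Week 2 rests on 1 animal per arm and the spread in this test comes from week 4, so a difference between weeks and a difference of the single week 2 animals cannot be told apart.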

How the results depend on the processing

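The 14 higher and 1 lower combinations of gene and class at week 4 became 12 to 18 higher and 1 lower under the 10 other scalings, models, filters, gates and adjustments, and 7 to 9 higher and 0 to 1 lower when each animal was left out in turn, where the lone animal of a group is assumed to vary like the other group. SESN1 in Müller nuclei was not called lower without either AAV-injected animal, and without replicate 1 of that group SESN1 in horizontal cells was (adjusted p = 0.0263). The 4 combinations past the threshold of the interaction of treatment and week, all in Müller nuclei, became 1 with no filter on low counts, which was MDM2 in astrocyte nuclei, and 2 under the stricter gate, MDM2 and ZMAT3 in Müller nuclei, and the cause was not tested. The 13 combinations over 2-fold at week 2 became 12 to 14. Of 150 values of the called combinations under settings that kept all animals, 146 kept their call and 4 did not, namely CDKN1A in rods and TP53INP1 in myeloid nuclei at 3000 or more UMIs (adjusted p = 0.0578 and 0.274), CDKN1A in amacrine cells under DESeq2 (0.0554) and ZMAT3 in astrocyte nuclei under the stricter gate (0.0510). Of 60 values with an animal left out, 31 kept their call. No direction reversed among the called combinations. CDKN1A passed in cones and bipolar cells under several settings, DESeq2 among them (adjusted p = 0.0333 and 0.0108). No paired analysis was possible because the labels do not tie an AAV-injected animal to a vehicle-injected one. The few vehicle UMIs of CDKN1A leave its ratio with a wide counting interval, and the filter on low counts left CDKN1A in myeloid nuclei out of the week 4 test.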
